A study of Mus musculus with 15 samples.

Results

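Heat shock chaperones are proteins that fold new or damaged proteins, hold them in solution or pass them on for degradation. HSP70 binds short greasy stretches of unfolded protein, J domain proteins (HSP40) bring it clients and speed its ATP cycle, and HSP110 and BAG proteins release its nucleotide. HSP90 takes over nearly folded clients such as kinases and steroid receptors, small heat shock proteins keep unfolded proteins soluble without ATP, and HSP60 with HSP10 forms a folding chamber in mitochondria. Heat shock factor 1 raises many of these genes when unfolded proteins build up. In the kidney, small heat shock proteins and HSP70 are known for protecting tubule cells during ischemia and against the high salt and urea of the medulla.

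The members described here are 40 genes chosen by symbol, of 27179 genes in each table: heat shock factors, HSP110, HSP90, HSP70, HSP60 with HSP10, HSP40, small heat shock proteins, BAG proteins and other co-chaperones. They were measured by RNA sequencing in induced renal tubular epithelial cells (iRECs), mouse fibroblasts reprogrammed into tubule-like cells. The 5 conditions had 3 libraries each, 15 in all: flat culture (2D), 3D culture in Matrigel, in Fibrin or in Collagen (collagen I), and guided growth of cells placed into fibrin and collagen I by inkjet bioprinting (Printed). The labels give both gels for Printed, whereas the name of its deposited table mentions only collagen; the labels were followed. The 4 conditions other than Printed were dispensed by hand and left to assemble by themselves, and all were kept in Renal Epithelial Growth Medium until day 7. Replicates were passages 35, 48 and 53 of 1 cell line, and the cultures of a passage came from a common pool of cells. The p-values therefore measure the spread between cultures of 1 line, not between animals. The study's design asked how each of the 4 microenvironments changed the cells relative to 2D.

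The data used were the authors' 4 deposited tables of DESeq2 results, 1 per microenvironment against 2D, with 1 fold change, standard error and p per gene over 6 libraries. They hold 0 columns of values per library, so library depth is unknown, and levels below are means implied by the tables rather than values of single libraries. A gene is said to have risen or fallen where the deposited adjusted p was under 0.05. Every value after ± is the authors' standard error of a log2 fold change of the microenvironment over 2D. In bulk RNA, fewer cells of a type and less RNA per cell cannot be told apart.

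The label of the cells was checked against marker lists. Of 16 renal epithelial markers, 14 had base means (mean normalized reads of a table) of 220.4 or more, with Pax8, Hnf4a, Emx2, Cdh16 and Lrp2 far above that, while the proximal tubule genes Slc34a1 and Aqp1 stayed at or below 4.61 in the authors' deposited tables. The fibroblast genes Thy1, Prrx1, Dpt and Dcn were at or near 0, with base means of at most 1.98 in the authors' deposited tables, and Vim and Twist1 were present. Other fibroblast genes were low but not absent. Col1a1 had base means of at least 140.6, Pdgfrb of at least 31.1 and Pdgfra of at least 28.2 in the authors' deposited tables. Those of Col1a2, Col3a1 and Lum were 24.94, 15.98 and 10.88 in Matrigel and at most 5.18 elsewhere in the authors' deposited tables. Among the renal markers, 4 of 14 tested rose in Matrigel, from Lrp2 (0.56) to Cdh1 (0.90), Krt19 (1.34) rose in Printed, and Pax8 fell in Fibrin (-0.63) and Collagen (-0.66) and Krt8 in Collagen (-0.92), all log2 values of the authors' deposited tables. Col1a1 (-1.49) and Pdgfra (-1.19) fell and the myeloid gene Itgam (1.24) rose in Fibrin, and Col1a1 fell in Collagen (-2.35), on the same scale in the authors' deposited tables. For sums of markers, levels were implied by each table alone, not by a median over the tables. The implied levels of the 7 endothelial markers summed to between 125 and 166 in all tables. Those of the 7 immune markers summed to between 493 and 561 in 2D, 216 in Matrigel, 375 in Fibrin, 199.97 in Collagen and 907 in Printed. Nearly all of this immune sum came from Csf1r, since Cd3e was at 0 and Ptprc, Adgre1 and Lyz2 had base means of at most 3.02 in the authors' deposited tables.

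In 2D the chaperones spanned the range from the most abundant to scarce transcripts. The constitutive HSP90 gene Hsp90ab1 had an implied level of 61065 normalized reads per kb of exon, above 99.9% of the 17729 genes ranked. Hspa8, the constitutive cytosolic HSP70, followed at 27076 per kb, and Hspb1, the small heat shock protein HSP25, at 19981 per kb. The mitochondrial folding machinery came next, with Hspa9 (mortalin, the HSP70 of the matrix) at 16702, Hspe1 (HSP10) at 13716 and Hspd1 (HSP60) at 11943 per kb. Cryab, the small heat shock protein alpha B-crystallin, stood at 8488 per kb, above 98.4% of genes. The heat-inducible HSP70 genes were much lower, Hspa1b at 662 and Hspa1a at 191 per kb. Lowest were the divergent HSP70 Hspa12a at 5.23 and the HSP40 gene Dnaja4 at 21.7 per kb. Levels in this paragraph are per exon length and can be compared between genes, whereas those given further on are totals for a gene.

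**Figure D1:**
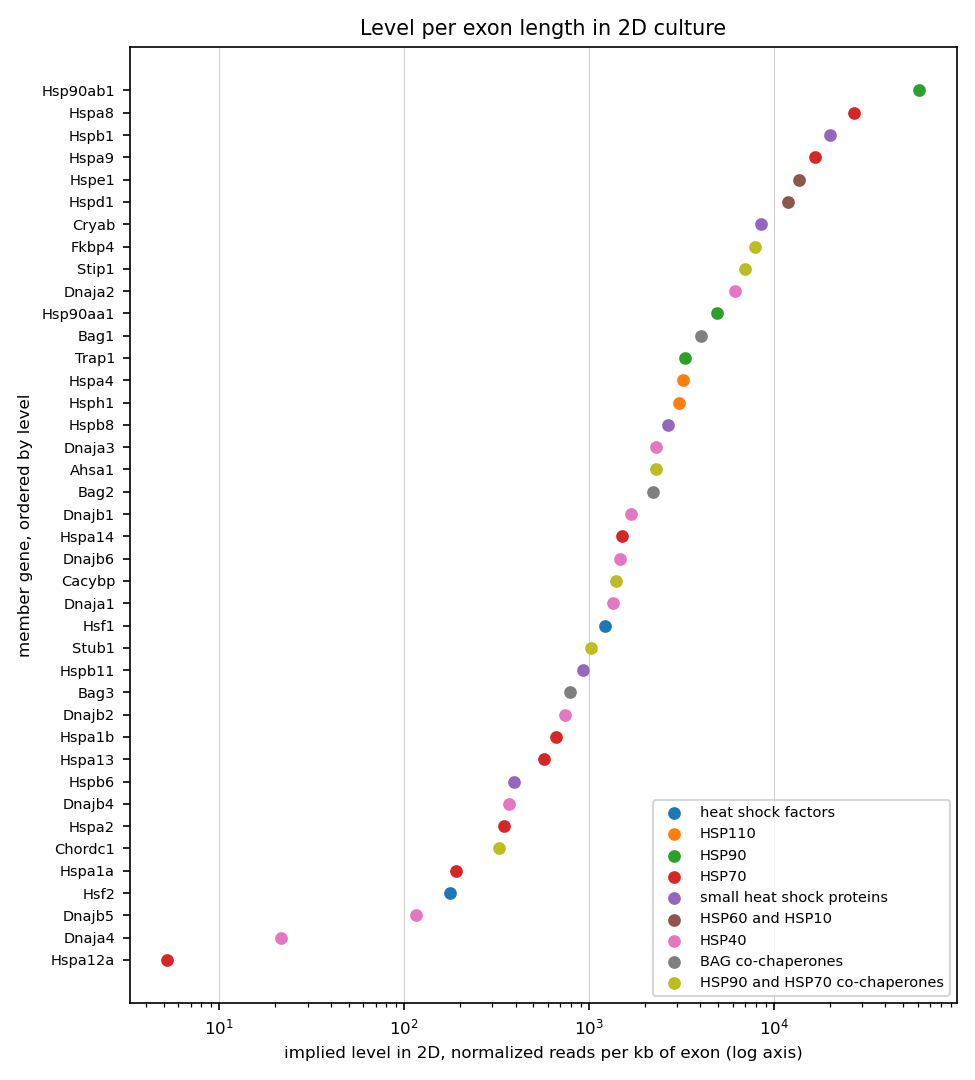
Implied level of each of the 40 chaperone genes in 2D, in normalized reads per kb of exon on a log axis, ordered by level and coloured by role. Levels run from 5.23 for Hspa12a to 61065 for Hsp90ab1.

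Few of the 40 genes changed in any microenvironment. All 40 had an adjusted p in all 4 of the authors' deposited tables, and 5 of 160 gene and table combinations passed, all of them higher than in 2D: the HSP110 gene Hsph1 in Collagen and Printed, the HSP90 activator Ahsa1 in Fibrin and Collagen, and the adaptor Stip1 in Fibrin. The other 37 genes passed in none of the 4 tables. None of the 40 fell.

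Matrigel changed none of them by the authors' deposited DESeq2 test, against 4.03% of all genes tested that rose and 2.32% that fell. At an unadjusted p under 0.05 it held 6 members (2 higher, 4 lower), or 15% of them, against 16.2% of all genes in that table of the authors. In Fibrin 2 of 40 rose (5%) against a background of 5.19%, and none fell against 3.11% in the authors' deposited table. Unadjusted, 9 of 40 members lay under 0.05 there, 6 higher and 3 lower, against 19.3% of all genes. In Collagen 2 of 40 rose (5%) against 6.51%, and none fell against 4.65% in the authors' deposited table, with 10 of 40 members under an unadjusted 0.05, 8 higher and 2 lower, against 22.9% of all genes. In Printed 1 of 40 rose (2.5%) against 2.51%, and none fell against 0.675% in the authors' deposited table, with 5 of 40 members under an unadjusted 0.05, all higher, against 11.4% of all genes. By the adjusted p the members were called no more often than genes at large in each comparison, and by the unadjusted p their share was near that of all genes.

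The medians of the 40 log2 fold changes were -0.04 in Matrigel, 0.14 in Fibrin, 0.18 in Collagen and 0.19 in Printed, and those of all genes tested lay between -0.004 and 0.010. Members above 0 numbered 16 in Matrigel, 26 in Fibrin, 31 in Collagen and 28 in Printed. All 4 comparisons share the 2D libraries, so their values are not independent of each other. The median standard error of the members was 0.20, 0.23, 0.22 and 0.21 in the authors' 4 deposited tables. The 95% interval lay within a 2-fold change either way for 34, 34, 32 and 38 of the 40. Errors were small even for a gene with almost no reads: Hspb7, outside the 40, had 0.11 at a base mean of 1.19 in Matrigel. The deposited fold changes and errors may therefore have been drawn toward 0 by the fit, which was not tested. The intervals may then be too narrow, and the implied levels of the microenvironments too close to those of 2D.

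**Figure D2:**
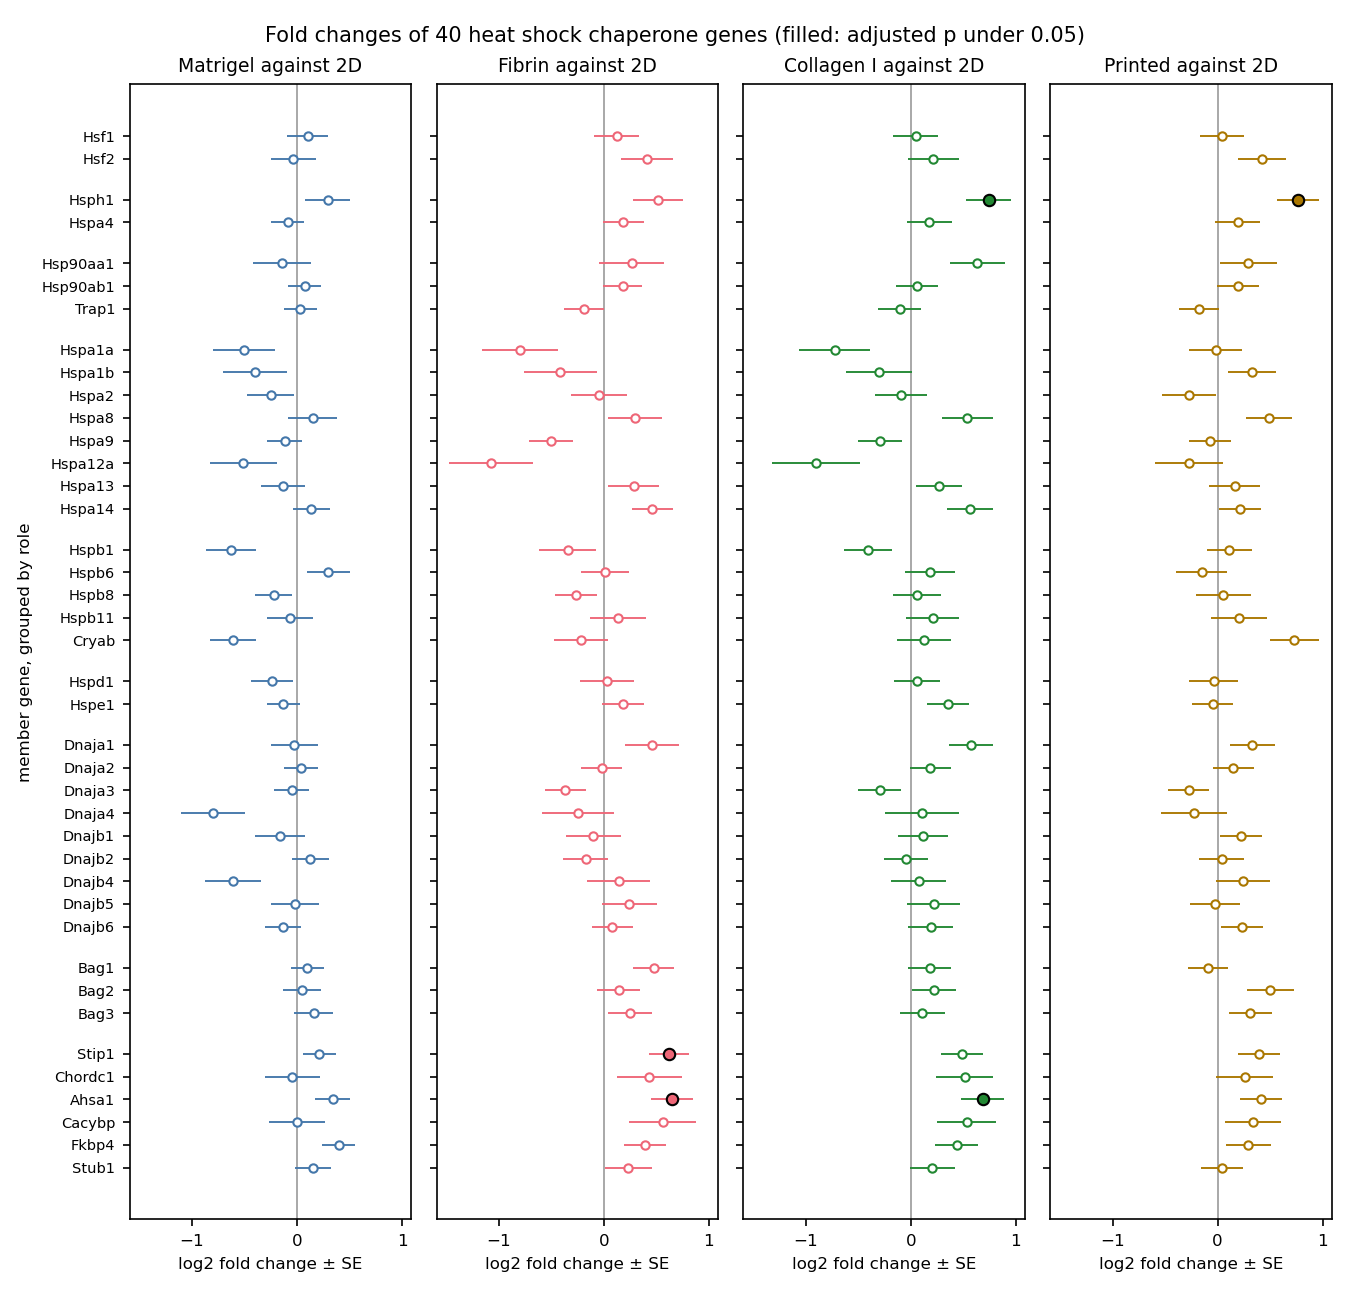
Log2 fold change against 2D with the authors' standard error for each of the 40 chaperone genes, grouped by role, in 4 panels for Matrigel, Fibrin, Collagen (shown as Collagen I) and Printed. Filled points passed at an adjusted p under 0.05: none in Matrigel, Stip1 and Ahsa1 in Fibrin, Hsph1 and Ahsa1 in Collagen, and Hsph1 in Printed.

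Neither of the heat shock factors passed in any comparison. Hsf1, its main activator, had implied levels of 2755 normalized reads in 2D and 2832 to 2996 in the 4 microenvironments, and its log2 fold changes lay between 0.04 and 0.12 in the authors' deposited tables. The widest 95% interval there ran from -0.31 to 0.55. Hsf2, a related factor with roles in development, had an implied level of 484 in 2D and log2 values of -0.04 ± 0.21, 0.41 ± 0.25, 0.21 ± 0.24 and 0.42 ± 0.23 in Matrigel, Fibrin, Collagen and Printed in the authors' deposited tables. Heat shock factor activity is set mainly by trimerization and modification of the protein, which RNA levels do not show.

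Heat shock factors bind alternating GAA and TTC units, and the promoters of the members were searched for them because these sites are what the genes are known to share. RefSeq promoter windows of 300 bases (250 before to 50 after the start, GRCm38.p6) were found for 33 of the 40 genes and not for Hsf1, Hsp90aa1, Hsp90ab1, Hspa8, Hspa9, Hspa13 and Cryab. A run of 3 units, GAA, any 2 bases, TTC, any 2 bases and GAA, on either strand, was in 5 of 33 members (15.2%) and in 179 of 27025 genes (0.662%). A pair of units, GAANNTTC or TTCNNGAA, each its own reverse complement and contained in every run of 3, was in 16 of 33 (48.5%) and in 4587 of all genes (17.0%). A match is a description of the letters, not a bound site. The runs of 3 or more units are printed below with the units in capitals, beside the pair of units in Hspa1b as an example of a shorter match, each 5′ to 3′ on the strand of its gene.
Hsph1: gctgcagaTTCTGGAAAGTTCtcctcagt
Chordc1: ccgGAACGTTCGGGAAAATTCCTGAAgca
Dnajb6: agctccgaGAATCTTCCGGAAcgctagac
Hspe1: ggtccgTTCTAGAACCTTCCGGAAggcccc
Hspa1b: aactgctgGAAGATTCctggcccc

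The Hsph1 stretch lies at chr5:149636280-149636308 on the minus strand. Its run begins at positions 16 and 37 of its 2 listed transcripts, with the start counted as 1. The longest run, 23 bases in Chordc1 at chr9:18292260-18292288 (plus strand), begins 4 bases before the start. The Dnajb6 stretch is at chr5:29735844-29735872 (plus strand), 127 and 46 bases before 2 listed starts. Hspe1 and Hspd1 are transcribed away from each other and share 1 stretch, at chr1:55088053-55088082, printed on the plus strand on which Hspe1 lies. In Hspa1b the pair of units lies at chr17:34959327-34959350 on the minus strand, 104 bases before the start, and Hspa1a has the same letters in a window that is identical at 296 of 300 bases. Of the 3 members that rose, Hsph1 has a run of 3 units, and the windows of Stip1 and Ahsa1 hold neither match. The other 4 genes with such a run, Chordc1, Dnajb6, Hspd1 and Hspe1, passed in no comparison.

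Hsph1, the HSP110 chaperone that releases nucleotide from HSP70 and works with it to take protein aggregates apart, was the member with the highest deposited log2 value in Printed and in Collagen. Its implied level was 13006 normalized reads in 2D, 15926 in Matrigel, 18576 in Fibrin, 21759 in Collagen and 22143 in Printed, so all 4 microenvironments lay above 2D. The range of the 2D level over tables (12615 to 14023) comes from the same 2D libraries each time. It is not a spread between cultures and shows no separation from them. It rose 1.67-fold in Collagen, log2 0.74 ± 0.21 with adjusted p = 0.0089, and 1.70-fold in Printed, log2 0.77 ± 0.20 with adjusted p = 0.0073, in the authors' DESeq2 tables as deposited. In Matrigel it stood at 0.29 ± 0.21 (adjusted p = 0.57) and in Fibrin at 0.51 ± 0.24 (adjusted p = 0.18) in the authors' deposited DESeq2 tables. No pair of microenvironments differed for Hsph1. The largest of its differences, Matrigel minus Printed, was -0.48 with a 95% interval of -1.05 to 0.10. Hsph1 lies on chromosome 5 from 149616843 to 149636498 (GRCm38). With the null spread of the test statistics taken from their own middle part, the call in Printed stood at adjusted p = 0.037 and that in Collagen did not pass. Hspa4, the second HSP110 gene, was at -0.09 ± 0.16, 0.19 ± 0.20, 0.18 ± 0.21 and 0.19 ± 0.21 in Matrigel, Fibrin, Collagen and Printed in the authors' deposited tables.

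The 6 co-chaperones of HSP90 and HSP70 held the other member calls. Ahsa1, which stimulates the ATPase of HSP90, had an implied level of 3148 in 2D, 3985 in Matrigel, 4935 in Fibrin, 5061 in Collagen and 4196 in Printed. It rose 1.57-fold in Fibrin, log2 0.65 ± 0.20 with adjusted p = 0.017, and 1.61-fold in Collagen, log2 0.68 ± 0.20 with adjusted p = 0.012, in the authors' DESeq2 tables as deposited. Matrigel (0.34 ± 0.17, adjusted p = 0.27) and Printed (0.41 ± 0.20, adjusted p = 0.39) lay above 2D without passing in the authors' deposited DESeq2 tables. Stip1 (HOP), the adaptor that hands clients from HSP70 to HSP90, had an implied level of 14604 in 2D, 16937 in Matrigel, 22442 in Fibrin, 20514 in Collagen and 19128 in Printed. It rose 1.54-fold in Fibrin, log2 0.62 ± 0.19 with adjusted p = 0.018, in the authors' DESeq2 table as deposited. Its values elsewhere were 0.21 ± 0.16 in Matrigel (adjusted p = 0.57), 0.49 ± 0.20 in Collagen (adjusted p = 0.099) and 0.39 ± 0.20 in Printed (adjusted p = 0.45) in the authors' deposited DESeq2 tables. Ahsa1 lies on chromosome 12 from 87266415 to 87273998 and Stip1 on chromosome 19 from 7020696 to 7040026 (GRCm38). None of the Ahsa1 and Stip1 calls passed with the null spread taken from the middle of the test statistics.

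The remaining co-chaperones of this group passed in no comparison. Fkbp4 (FKBP52), an immunophilin that HSP90 carries in steroid receptor complexes, was at 0.40 ± 0.16, 0.39 ± 0.20, 0.44 ± 0.20 and 0.29 ± 0.21 in Matrigel, Fibrin, Collagen and Printed in the authors' deposited tables. Chordc1, an HSP90-binding protein with zinc-binding CHORD domains, was at -0.04 ± 0.26, 0.43 ± 0.31, 0.51 ± 0.27 and 0.26 ± 0.27 in the same order in the authors' deposited tables. Cacybp, which binds calcyclin and a ubiquitin ligase, had -0.002 ± 0.27, 0.56 ± 0.32, 0.53 ± 0.28 and 0.34 ± 0.27 in the authors' deposited tables. Stub1 (CHIP), the ubiquitin ligase that sends clients of HSP70 and HSP90 to degradation, had the smallest values in Printed, 0.04 ± 0.20, and 0.15 to 0.23 elsewhere in the authors' deposited tables. All 6 genes lay above 2D in Fibrin, Collagen and Printed and 4 of 6 in Matrigel, with group medians of 0.50, 0.50, 0.31 and 0.18.

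**Figure D3:**
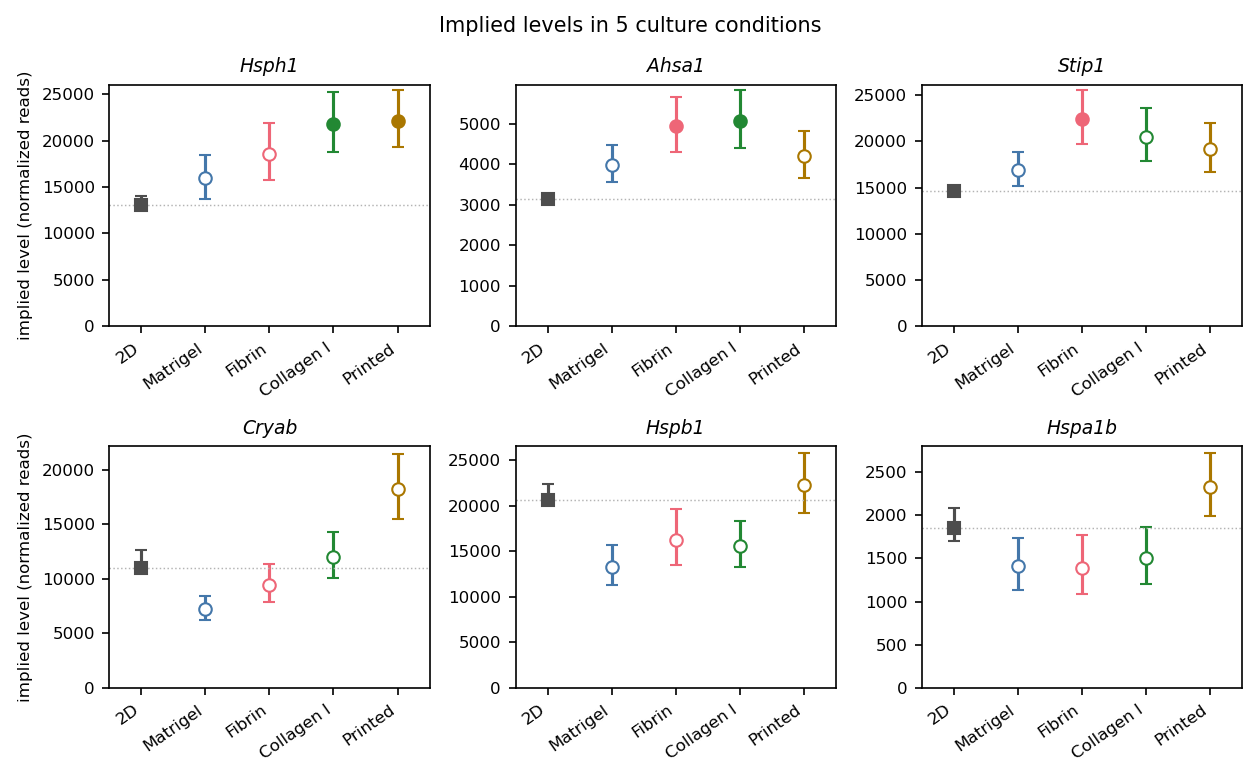
Implied levels in normalized reads per library for Hsph1, Ahsa1, Stip1, Cryab, Hspb1 and Hspa1b in 2D (square, with the range over 4 tables) and in each microenvironment (circle, with the level 1 standard error of the log2 fold change either way). Filled circles passed against 2D. Cryab runs from 7209 in Matrigel to 18189 in Printed, on either side of its 2D level of 10958.

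No HSP90 gene passed in any comparison. Hsp90ab1, the constitutive cytosolic form, had an implied level of 153883 normalized reads in 2D and 160236 to 175999 in the microenvironments. Its log2 values were 0.07 ± 0.16, 0.18 ± 0.19, 0.06 ± 0.20 and 0.19 ± 0.20 in Matrigel, Fibrin, Collagen and Printed in the authors' deposited tables, and the upper ends of the 95% intervals reached at most 0.58. Hsp90aa1, the heat-inducible form, had its highest value in Collagen, 0.63 ± 0.26 with adjusted p = 0.097 in the authors' deposited DESeq2 table, at an implied 25867 against 16670 in 2D. It stood at -0.14 ± 0.27, 0.26 ± 0.31 and 0.29 ± 0.27 in Matrigel, Fibrin and Printed in the authors' deposited tables. The mitochondrial form Trap1 was at 0.03 ± 0.16, -0.18 ± 0.19, -0.10 ± 0.21 and -0.18 ± 0.19 in Matrigel, Fibrin, Collagen and Printed in the authors' deposited tables.

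The 8 HSP70 genes had no call and lay on both sides of 0, with group medians of -0.19, -0.23, -0.19 and 0.07 in Matrigel, Fibrin, Collagen and Printed. The heat-inducible genes Hspa1a and Hspa1b are near-identical neighbours, so the authors' counting could split or lose their reads and their values are uncertain. Hspa1b had implied levels of 1855 in 2D, 1409 in Matrigel, 1392 in Fibrin, 1502 in Collagen and 2329 in Printed. Its log2 values were -0.40 ± 0.31, -0.41 ± 0.35, -0.30 ± 0.31 and 0.33 ± 0.23 in that order in the authors' deposited tables. Hspa1a was at -0.50 ± 0.30, -0.80 ± 0.36, -0.72 ± 0.34 and -0.02 ± 0.25 in the authors' deposited tables, with an unadjusted p of 0.029 in Fibrin and 0.033 in Collagen and a smallest adjusted p of 0.168 by DESeq2. Computed from the base means, with the 2D level of the other 3 tables, Hspa1a was at -1.10 in Matrigel and 0.27 in Printed and Hspa1b at -0.77 and 0.65, on a scale that lay above the deposited one by a median of 0.06 in Matrigel and 0.10 in Printed.

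Hspa8, which folds proteins in unstressed cells, had an implied level of 64820 in 2D, 71943 in Matrigel, 79594 in Fibrin, 94182 in Collagen and 90711 in Printed. Its values in Collagen (0.54 ± 0.24, adjusted p = 0.14) and Printed (0.48 ± 0.22, adjusted p = 0.31) did not pass in the authors' deposited DESeq2 tables. Hspa14, which works at the ribosome on emerging chains, had its highest value in Collagen, 0.57 ± 0.22 with adjusted p = 0.075, followed by 0.46 ± 0.20 in Fibrin with adjusted p = 0.14, in the authors' deposited DESeq2 tables. Hspa13, a truncated HSP70 of microsomes, lay between -0.13 and 0.28, and Hspa2, best known from male germ cells, between -0.27 and -0.05 in the authors' deposited tables. Hspa12a had the lowest value of any member, -1.07 ± 0.40 with adjusted p = 0.073 in Fibrin in the authors' deposited DESeq2 table, at an implied 33.4 normalized reads in 2D and 15.9 in Fibrin.

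The mitochondrial chaperones gave no call either. Hspa9 had an implied level of 50924 in 2D, 46995 in Matrigel, 35866 in Fibrin, 41574 in Collagen and 48454 in Printed. Its lowest log2 value, -0.51 ± 0.21 in Fibrin, had an adjusted p of 0.12 in the authors' deposited DESeq2 table. Hspd1 was at -0.24 ± 0.20, 0.03 ± 0.26, 0.06 ± 0.22 and -0.04 ± 0.23, and Hspe1 at -0.13 ± 0.16, 0.18 ± 0.20, 0.35 ± 0.20 and -0.05 ± 0.20, in Matrigel, Fibrin, Collagen and Printed in the authors' deposited tables. This pair shares a promoter stretch, printed above, and the annotated gene spans overlap by 96 bases on opposite strands. Dnaja3, the J domain partner of Hspa9 in the matrix, was below 0 in all 4 of the authors' deposited tables, at -0.05 ± 0.17, -0.37 ± 0.20, -0.30 ± 0.20 and -0.28 ± 0.19, with no adjusted p under 0.29 by DESeq2.

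Cytosolic HSP40 genes had no call. Dnaja1, a general partner of HSP70, came closest with 0.57 ± 0.21 in Collagen (adjusted p = 0.059) in the authors' deposited DESeq2 table, at an implied 11572 against 7777 in 2D. It was at -0.02 ± 0.22 in Matrigel, 0.46 ± 0.26 in Fibrin and 0.33 ± 0.22 in Printed in the authors' deposited tables. Dnajb1, the heat-inducible HSP40, lay between -0.16 and 0.22 in the authors' deposited tables, at implied levels of 4832 to 6308 against 5401 in 2D. Dnajb4 was at -0.61 ± 0.27 in Matrigel (adjusted p = 0.18) and between 0.08 and 0.24 elsewhere in the authors' deposited DESeq2 tables. Dnaja4 had -0.80 ± 0.31 in Matrigel (adjusted p = 0.11) in the authors' deposited DESeq2 table, at an implied 44.2 normalized reads against 76.8 in 2D. Dnaja2, Dnajb2, Dnajb5 and Dnajb6, the last a suppressor of protein aggregation, lay between -0.17 and 0.24 in the authors' deposited tables.

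BAG proteins, which release nucleotide from HSP70 through their BAG domain, had no call. Bag1 was highest in Fibrin, 0.48 ± 0.20 with adjusted p = 0.12, and Bag2, which also inhibits CHIP, in Printed, 0.50 ± 0.23 with adjusted p = 0.31, in the authors' deposited DESeq2 tables. Bag3, a heat shock factor target that steers clients of Hspb8 to autophagy, was at 0.16 ± 0.18, 0.25 ± 0.21, 0.11 ± 0.21 and 0.31 ± 0.20 in Matrigel, Fibrin, Collagen and Printed in the authors' deposited tables.

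Small heat shock proteins held the one difference between microenvironments that passed. Cryab, which binds unfolded proteins and intermediate filaments, had implied levels of 10958 normalized reads in 2D, 7209 in Matrigel, 9432 in Fibrin, 11978 in Collagen and 18189 in Printed. Matrigel was the lowest and Printed the highest, and 2D lay between them. Against 2D it was at -0.60 ± 0.22 in Matrigel (adjusted p = 0.077), -0.22 ± 0.26 in Fibrin (adjusted p = 0.76), 0.13 ± 0.26 in Collagen (adjusted p = 0.83) and 0.73 ± 0.24 in Printed (adjusted p = 0.056) in the authors' deposited DESeq2 tables. Computed from the base means, its log2 value in Printed was 1.04, above the 0.95 of Hsph1 on that scale. Hspb1, which also guards the actin cytoskeleton, had implied levels of 20601 in 2D, 13304 in Matrigel, 16228 in Fibrin, 15567 in Collagen and 22261 in Printed. Its lowest log2 value was -0.63 ± 0.24 in Matrigel with adjusted p = 0.098, and it stood at -0.34 ± 0.27, -0.40 ± 0.23 and 0.11 ± 0.21 in Fibrin, Collagen and Printed in the authors' deposited DESeq2 tables. Hspb8, the partner of Bag3, lay between -0.27 and 0.06, and Hspb6 (HSP20) between -0.15 and 0.30 in the authors' deposited tables. Hspb11 (IFT25), a part of the intraflagellar transport of cilia rather than a typical chaperone, lay between -0.06 and 0.21 in the authors' deposited tables.

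Differences between microenvironments were tested for the 6 pairs as the difference of the log2 values divided by its error, against a normal distribution. Each p was adjusted over the genes with an adjusted p in both deposited tables. The square of the error was the sum of both squared standard errors. This counts the spread of the shared 2D libraries in both terms and makes the test strict. Cryab was lower in Matrigel than in Printed, a log2 difference of -1.34 (standard error 0.32, 95% interval -1.96 to -0.71), 2.52-fold, with adjusted p = 0.0090 by this normal test of the DESeq2 values. It was the only one of 240 member and pair combinations to pass. For Matrigel minus Printed this is 1 of 40 members (2.5%), against 0.612% of all genes called. The other 5 pairs had no member called, against backgrounds of 1.13% for Matrigel minus Fibrin, 0.478% for Matrigel minus Collagen, 0.548% for Fibrin minus Collagen, 1.4% for Fibrin minus Printed and 0.89% for Collagen minus Printed. At an unadjusted p under 0.05 those 5 pairs, from the authors' DESeq2 values, held 0, 2, 0, 2 and 0 members in that order, and Matrigel minus Printed held 3. The share of all genes at this unadjusted threshold was not computed for pairs, so these counts have no background.

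Median differences of the 40 members were -0.21 for Matrigel minus Fibrin, -0.26 for Matrigel minus Collagen and -0.25 for Matrigel minus Printed, against -0.01, -0.02 and -0.01 over all genes. The pairs without Matrigel had medians between -0.08 and 0.02. With the summed variance divided by 2, which allows for the shared 2D libraries, Hspb1 and Dnajb4 also passed for Matrigel minus Printed, at adjusted p = 0.037 for both, beside Cryab. Their differences were -0.74 (standard error 0.32) and -0.86 (standard error 0.37). Cryab then passed for Matrigel minus Collagen as well, -0.73 with adjusted p = 0.047, and for Fibrin minus Printed, -0.95 with adjusted p = 0.0047. Calls rose over all genes too, from 89 to 451 of 14553 tested for Matrigel minus Printed. They went from 67 to 637 of 14030 for Matrigel minus Collagen and from 204 to 769 of 14520 for Fibrin minus Printed. In all, 36 members had no call against 2D or between microenvironments in the strict test.

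**Figure D4:**
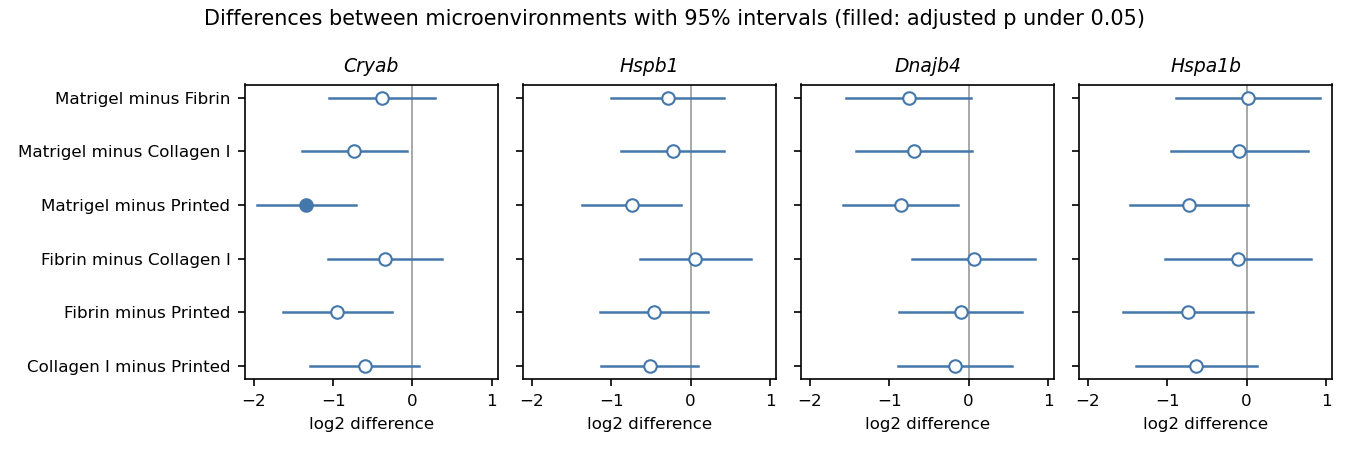
Difference of the log2 fold changes of 2 microenvironments, with its 95% interval, for Cryab, Hspb1, Dnajb4 and Hspa1b over the 6 pairs. The only filled point, which passed, is Cryab for Matrigel minus Printed at -1.34.

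The annotated span of Cryab overlaps on the opposite strand with its neighbour Hspb2, over 1283 bases, and with 2310030G06Rik, over 577 bases, and the strand setting of the authors' counting is not given in the sources used here. Hspb2 had base means of 87.1 to 115 in the authors' deposited tables, so far fewer reads were credited to it than to Cryab. How reads in the shared bases were counted is not known, and the part of the overlap in the Cryab values was not tested. Cryab lies on chromosome 9 from 50745951 to 50756636 (GRCm38). Among the immune markers summed above, Csf1r was at -1.31 ± 0.23 in Matrigel, -0.58 ± 0.24 in Fibrin, -1.496 ± 0.27 in Collagen and 0.71 ± 0.22 in Printed in the authors' deposited tables, so it too was lower in Matrigel than in Printed. Its part in the Cryab difference was not tested. Summed renal epithelial markers stood at 244454 in Matrigel against 209635 in 2D, and at 271476 in Printed against 214541 in 2D. Each of these sums is on the scale of its own table.

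Other chaperone genes were taken from lists of the same pathways. Of 39 other, mostly cytosolic, chaperones, co-chaperones and heat shock factors, 36 or 37 of them tested, none passed in Matrigel (3 under an unadjusted 0.05 by the authors' DESeq2 test) and 1 rose in each of Fibrin, Collagen and Printed. These were 2.70%, 2.78% and 2.78% of those tested, against 5.19%, 6.51% and 2.51% of all genes that rose. In Fibrin and Collagen the gene was Dnajc9, a J domain protein that binds histones, at 0.86 ± 0.20 with adjusted p = 0.00075 and 0.95 ± 0.22 with adjusted p = 0.00064 in the authors' deposited DESeq2 tables. Neither Dnajc9 call passed with the null spread taken from the middle of the test statistics. In Printed it was Hspa4l, an HSP110 gene known to respond to osmotic stress in the renal medulla, at 1.05 ± 0.21 with adjusted p = 6.7e-05 in the authors' deposited DESeq2 table. Hspa4l stood at -0.10 ± 0.21 in Matrigel, 0.37 ± 0.22 in Fibrin and 0.51 ± 0.21 in Collagen in the authors' deposited tables. The list also holds Hsf4, Hsf5 and Serpinh1, a collagen chaperone of the endoplasmic reticulum. Its medians were 0.04, 0.13, 0.15 and 0.06 in Matrigel, Fibrin, Collagen and Printed.

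TRiC and prefoldin fold actin and tubulin. Their 14 listed subunits and the phosducin-like co-factor Pdcl3, 15 genes, all lay above 2D in Collagen, with a median of 0.26. In Matrigel, Fibrin and Printed, 7, 12 and 9 of them lay above 2D, with medians of -0.04, 0.11 and 0.02. In Collagen 2 of the 15 rose (13.3%), against 6.51% of all genes. These were the prefoldin subunits Vbp1 at 0.78 ± 0.24 with adjusted p = 0.016 and Pfdn4 at 0.75 ± 0.24 with adjusted p = 0.019 in the authors' deposited DESeq2 table. None of the 15 passed elsewhere (0 under an unadjusted 0.05 in Matrigel, 2 in Fibrin and 0 in Printed by the authors' DESeq2 test). Of 20 mitochondrial chaperone partners and proteases, 1 changed: the matrix protease Lonp1 fell in Fibrin to -0.67 ± 0.21 with adjusted p = 0.018 in the authors' deposited DESeq2 table. That is 5% of the list, against 3.11% of all genes that fell in Fibrin. Of 20 chaperones of the endoplasmic reticulum, 1 changed: Sil1, which releases nucleotide from the luminal HSP70, fell in Collagen to -0.75 ± 0.23 with adjusted p = 0.016 in the authors' deposited DESeq2 table. That is 5% of this list of reticulum chaperones, near the 4.65% of all genes that fell in Collagen. Medians of that list were 0.06, 0.11, 0.18 and 0.26 in Matrigel, Fibrin, Collagen and Printed. The calls of Vbp1, Pfdn4, Lonp1 and Sil1 did not pass with the null spread taken from the middle of the test statistics.

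A list of 14 non-chaperone genes that heat shock factors are known to raise, most of them also raised by other stress pathways, changed in both directions. None rose and 1 fell in Matrigel, 1 rose and 1 fell in Fibrin, 2 rose and 2 fell in Collagen, and 3 rose in Printed. The called share of the list in this order was 7.14%, 14.3%, 28.6% and 21.4%. Of all genes tested, 4.03% rose and 2.32% fell in Matrigel, 5.19% and 3.11% in Fibrin, 6.51% and 4.65% in Collagen, and 2.51% and 0.675% in Printed. Gadd45b, a growth arrest and damage gene, fell in Matrigel (-1.44 ± 0.18, adjusted p = 1.3e-12), Fibrin (-0.73 ± 0.25, adjusted p = 0.041) and Collagen (-1.27 ± 0.24, adjusted p = 1.2e-05) in the authors' deposited DESeq2 tables. The immediate early gene Fos rose in Fibrin, 1.24 ± 0.30 with adjusted p = 0.0011 in the authors' deposited DESeq2 table. Hmox1, the heme oxygenase of oxidative stress, rose in Collagen, 1.05 ± 0.22 with adjusted p = 8.3e-05, and also in Printed, 0.97 ± 0.20 with adjusted p = 0.00027, in the authors' deposited DESeq2 tables. The metallothioneins Mt2 (1.15 ± 0.26, adjusted p = 0.00089) and Mt1 (0.89 ± 0.22, adjusted p = 0.0049) rose in Printed in the authors' deposited DESeq2 table. The other calls in Collagen were Mt2, higher at 0.86 ± 0.28, and Atf3, lower at -0.72 ± 0.25, in the authors' deposited table. With the null spread taken from the middle of the authors' DESeq2 statistics, none of the calls of these 5 lists in Fibrin and Collagen passed, while the counts were as deposited in Matrigel (1) and in Printed (1 and 3).

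**Figure D5:**
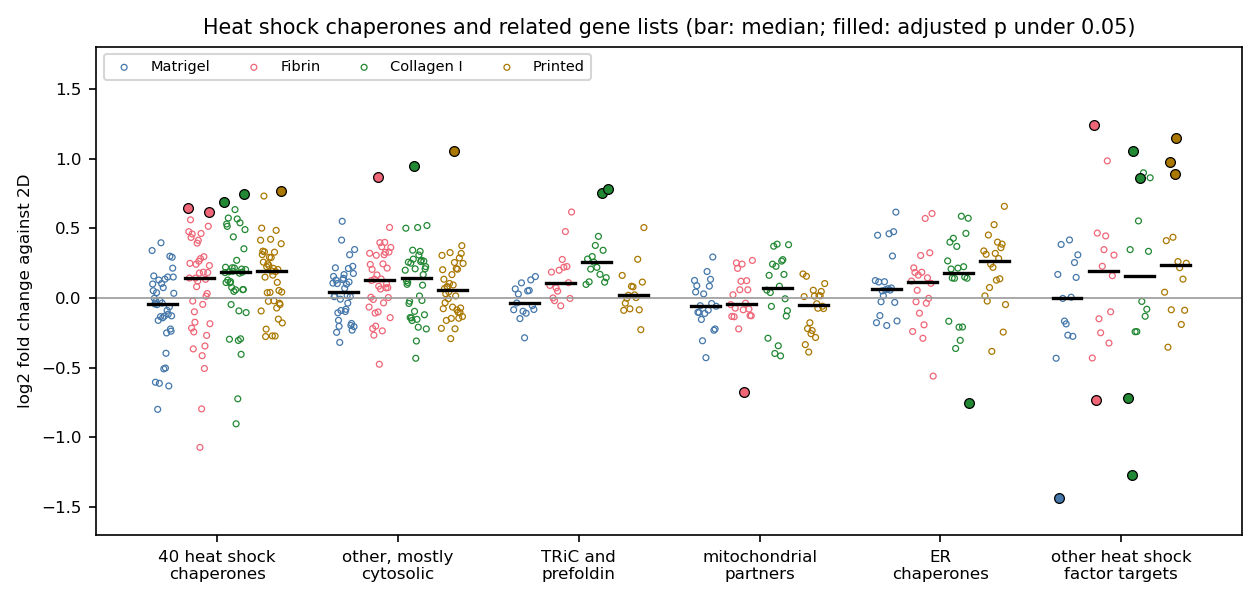
Log2 fold changes against 2D of the 40 heat shock chaperones and of 5 related lists (the second is mostly cytosolic chaperones and co-chaperones), in 4 microenvironments, with the median of each as a bar and genes that passed filled. The largest called values, such as Gadd45b at -1.44 in Matrigel and Fos at 1.24 in Fibrin, are in the list of other heat shock factor targets.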

How the data were processed

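RNA of 15 iREC cultures, 3 per condition, was sequenced by the authors. Per the submitters' processing notes, reads were handled with DESeq2 1.22.1, featureCounts 1.6.3, STAR 2.6.0b-1, Trim Galore 0.4.3 and FastQC 0.72 on genome build mm10. Not given in the sources used here are the annotation, the strand setting, the handling of reads with several hits and the model formula. Base means, as deposited, are a signal: read counts divided by size factors and averaged over 6 libraries. Fold changes of the microenvironment over 2D and their standard errors were deposited as log2 values. The authors' Wald statistic is a score, the fold change over its error. Deposited p-values are two-sided, with a second column adjusted after Benjamini and Hochberg. Recomputed Wald statistics and adjusted p-values matched the deposited ones within 7.99e-14 and 6.31e-15.

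Without values per library no test was refitted, and library depth is unknown. Calls against 2D used the deposited adjusted p under 0.05. Pairs of microenvironments were compared as described with their results. The level in 2D was taken as 2 times the base mean over 1 plus the fold, as the median of 4 tables, and the level in a microenvironment as that times the fold. The sign of the fold changes was tested on this level: its log2 SD between tables had a median of 0.038, and of at least 0.099 with the sign of 1 table turned. As an alternative, a fold change was computed from the base mean of a table and the 2D level of the other 3. On this scale well-expressed genes (base means from 100 up) were shifted from the deposited log2 values by a median of 0.06 in Matrigel, -0.06 in Fibrin, -0.13 in Collagen and 0.10 in Printed, so its values carry an offset of each table. Members, lists and tests were chosen with earlier results of these data known. Members called against 2D or between microenvironments were to be described in full, and from each other list the called genes with the highest and lowest values in each comparison. Coordinates and promoter windows came from RefSeq (GRCm38.p6) and exon lengths from GENCODE. Python 3.11.15, pandas 2.3.3, SciPy 1.17.1 and statsmodels 0.14.6 were used, and the tests were tried on simulated data. Alternatives changed the call threshold, the genes adjusted over, the null spread, the centring, the source of the fold change and the variance of a difference.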

Additional observations from a re-analysis of the deposited data

Results flagged for a closer look

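Among the 40 members and 11 of the genes of other lists that were called against 2D, 3 genes differed between microenvironments, all for Matrigel minus Printed, with the shared 2D libraries counted in both errors. Over all genes tested for that pair, 89 of 14553 (0.612%) differed. The 11 genes were picked because they were called against 2D, so their share cannot be set directly against this. For Cryab, alpha B-crystallin, the log2 difference was -1.34, with log2 fold changes of -0.60 in Matrigel and 0.73 in Printed. Neither passed against 2D in the authors' deposited tables by DESeq2, with adjusted p of 0.077 and 0.056. For Hspa4l, an HSP110 gene outside the 40 members, it was -1.15 (adjusted p = 0.019 by the normal test of the DESeq2 values), and the log2 fold changes in the authors' deposited tables were -0.10 and 1.05. For Mt2, a metallothionein, it was -1.42 (adjusted p = 0.010 by the normal test of the DESeq2 values), and those in the authors' deposited tables were -0.27 and 1.15. Matrigel and Printed also differed in matrix, in dispensing by hand or printer, and in free or guided growth, and these cannot be told apart here.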

How the results depend on the processing

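Calls of members against 2D depended on the null spread of the Wald statistics. Their interquartile range was 1.27, 1.35, 1.57 and 1.11 times that of a normal in Matrigel, Fibrin, Collagen and Printed. With this spread as the null, 0 members passed in Fibrin and 0 in Collagen, by the authors' DESeq2 statistics, and the call of Hsph1 in Printed stayed, while genes called in the whole tables went from 928 to 373, from 1215 to 336, from 1570 to 146 and from 481 to 270. At an adjusted p under 0.01, 0 members passed in Fibrin and 1 in Collagen, with 539, 724, 887 and 256 genes in the whole tables. Counts in the other lists moved too. Under the empirical null 0 of the other, mostly cytosolic, chaperones passed in Fibrin and 0 in Collagen, 0 TRiC and prefoldin subunits in Collagen, 0 mitochondrial partners in Fibrin, 0 chaperones of the endoplasmic reticulum in Collagen, and 0 other heat shock factor targets in Fibrin and 0 in Collagen. At 0.01 the TRiC, mitochondrial and endoplasmic reticulum counts were also 0, and those of other heat shock factor targets were 1 in Fibrin and 2 in Collagen. Adjusted over every gene with a p-value, the Fibrin count of that list was 1.

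With the summed variance divided by 2, members differing numbered 1 for Matrigel minus Collagen, 3 for Matrigel minus Printed and 1 for Fibrin minus Printed. Genes called over the whole tables then went from 163 to 721, 67 to 637, 89 to 451, 77 to 267, 204 to 769 and 125 to 713 for the 6 pairs in the order of Matrigel minus Fibrin, Collagen and Printed, Fibrin minus Collagen and Printed, and Collagen minus Printed. At 0.01 these were 85, 44, 52, 57, 127 and 82, and under the empirical null 300, 82, 236, 526, 289 and 115. The Cryab call for Matrigel minus Printed held under all 4 alternatives for pairs. Centring reversed 1 of 204 single values, Hspb6 in Fibrin at -0.0073, which did not pass either way. Values implied by the base means moved 15 of 204 by more than 1 standard error. No paired analysis was possible because the tables hold no values per library, and for the same reason no library could be left out. The planned comparison of protein ends was not run. The standard errors, near 0.2, limit what single members can show.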
